A study of Mus musculus with 15 samples.

Results

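Coagulation and complement plasma proteins are a set of 37 genes whose products the liver secretes into blood, 20 of coagulation and fibrinolysis and 17 of complement. They were chosen by name, and every probe set that the platform annotation assigns to 1 of these symbols alone was taken. Of the 37 genes, 34 were measured, by 45 probe sets, among 18193 genes in all. Cpb2, C3 and C4b had no probe set of their own and were not analysed here. Liver RNA was hybridised to Affymetrix whole genome arrays, 1 male mouse per array and 5 mice per group. The XKA-H group was KKAy mice given the herbal medicine Xiao-Ke-An (XKA) by gavage at 1.5 g/kg once a day for 32 days, the KKAy model group was KKAy mice given water, and the C57BL/6J group was non-diabetic mice given water. KKAy mice are the obese and diabetic KK strain with the yellow allele of agouti, and all KKAy mice of both groups ate a high-fat diet, while C57BL/6J mice ate chow and came from another supplier. All mice were 10 weeks old when dosing began. Strain, diet and supplier thus differ together between KKAy and C57BL/6J mice and cannot be told apart, and sequence differences between the strains under a probe cannot be told apart from differences in RNA level.

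In coagulation, zymogens made by hepatocytes are activated in turn until thrombin converts fibrinogen to fibrin. Antithrombin, heparin cofactor II and protein C restrain coagulation, and plasmin dissolves the clot. In complement, mannose-binding lectins, antibody-bound C1 or spontaneous activation lead to cleavage of C3 and C5, after which C5b, C6, C7, C8 and C9 assemble into a pore. Several of these plasma proteins, fibrinogen among them, rise in the acute phase response, which interleukin-6 drives in hepatocytes through STAT3 and C/EBP factors, and hepatocyte expression of many of them rests on HNF1 and HNF4.

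The deposited intensities had array medians of 136 to 161 for XKA-H, 127 to 162 for KKAy model and 146 to 182 for C57BL/6J mice, so each array was scaled to a median of 1000, the target of the study's methods. The scaled value is called the scaled signal below. Hepatocyte markers were high in every group, with a sum over 8 markers of 3000986 to 3941480 in XKA-H, 2949369 to 4626203 in KKAy model and 2546007 to 4368673 in C57BL/6J livers, and 1 of the 8 (Apob) passed the test between KKAy model and C57BL/6J livers. By the brightest probe set of each gene, all members lay far above the array median, with group means of 16670 to 705200. The median coefficient of variation within a group was 15.5%. A gene was called at a Benjamini-Hochberg adjusted p under 0.05 from limma, fitted on all 15 arrays and adjusted over all 18193 genes. The 3 comparisons share arrays. Scaling to the median moved all genes as a body, whose median log2 change between KKAy model and C57BL/6J livers was 0.15, -0.04 at the deposited scale and 0.04 after quantile normalization. In bulk liver RNA, fewer cells of a type and less RNA per cell cannot be told apart.

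Between KKAy model and C57BL/6J livers, 8 of 34 members were called, 6 higher and 2 lower, where 13% of all genes were called, 10.6% higher and 2.43% lower. Complement members made up 6 of these 8. C6, C9, C4bp and Mbl1 were higher in KKAy model liver, Hc and C8b were lower, and of the 19 coagulation members Fga and F9 were higher and none was lower by limma. F13b was called as lower after quantile normalization (log2 change -0.24), Serpinf2 with arrays centred on other hepatocyte plasma proteins (log2 change -0.49), and no coagulation member at the deposited scale. At an unadjusted p under 0.05 there were 11 members, 2 of them of coagulation, against 25.2% of all genes. The median log2 change over the 34 members was 0.14, over the 19 coagulation members 0.11 and over the 15 complement members 0.37, against 0.15 over all genes. At the deposited scale these medians were -0.05, -0.09, 0.18 and -0.04, and after quantile normalization -0.07, -0.09, 0.17 and 0.04, so no direction is given for the 34 members or for the coagulation members as a body. The ranges of the groups did not overlap for 7 members, where 10.6% of all genes did not overlap. Relative to the median of all genes, the log2 change of the called members was -1.47 for Hc, -0.94 for C8b, 1.11 for C6, 0.77 for C9, 0.77 for C4bp, 0.62 for Mbl1, 0.48 for Fga and 0.32 for F9. The plot of log2 changes by role shows all 34 members.

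**Figure D1:**
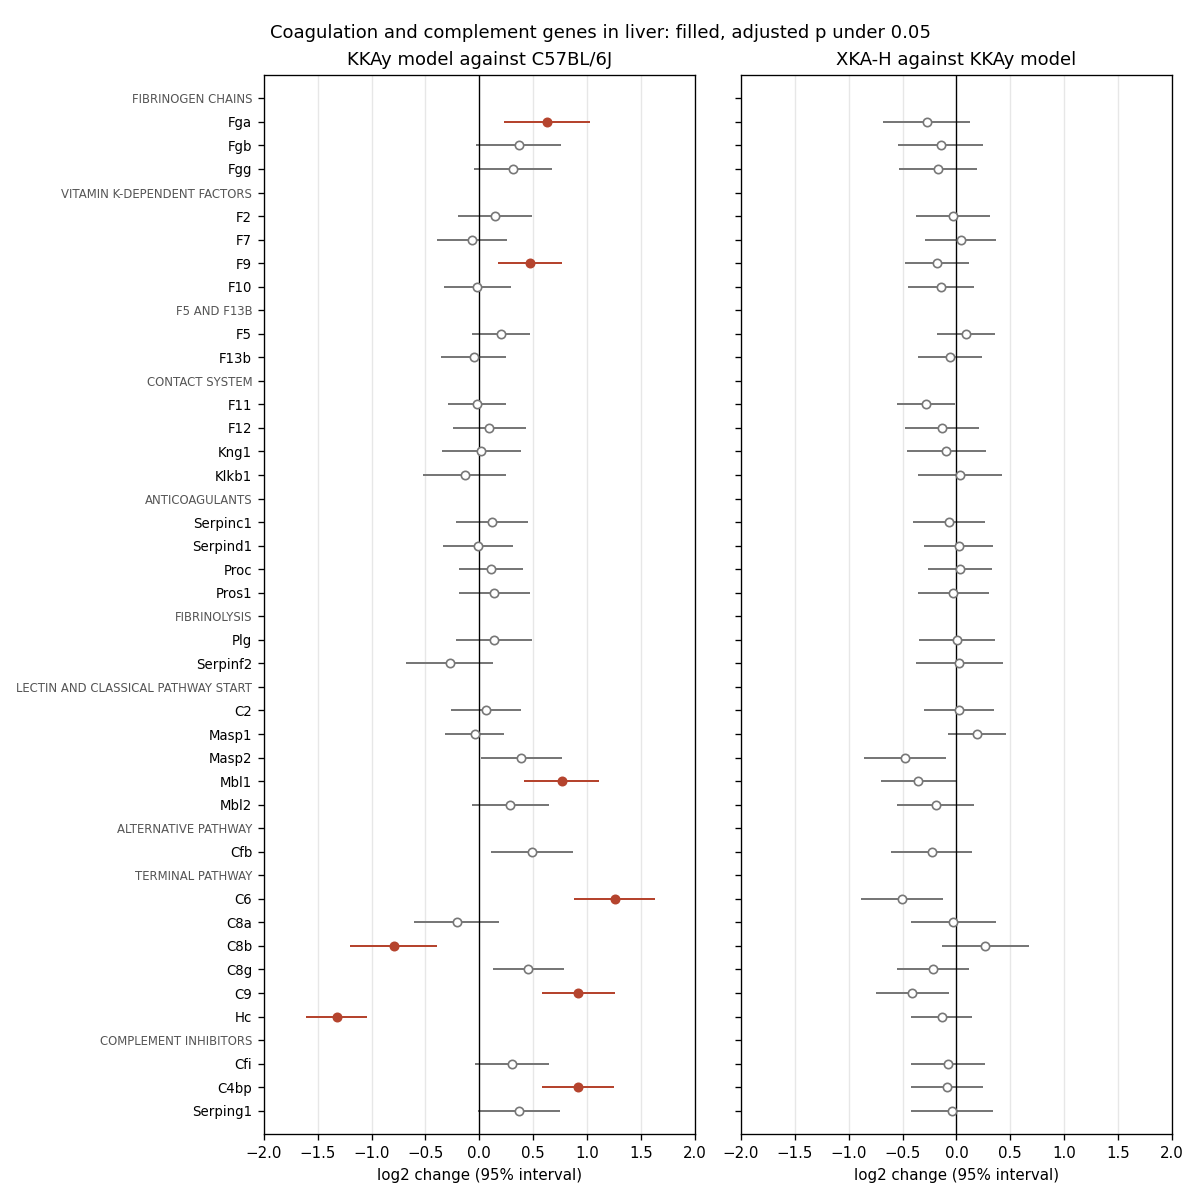
Log2 change (x axis) with its 95% interval of the 34 measured members, grouped by role, between KKAy model and C57BL/6J livers (left) and XKA-H and KKAy model livers (right), n = 5 arrays a group. Filled points passed an adjusted p under 0.05 from limma, which 8 members did on the left and 0 on the right.

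The called members differ in what the stretch before their start holds. RefSeq promoter sequences (GRCm38.p6) were matched for 28 of the 37 members. The 200 bases before the annotated start were searched on both strands for 3 sets of letters. These were an HNF1 partial site (GTTAAT), a C/EBP site (TTNNGCAA) and a type II interleukin-6 element (CTGGGAA). The HNF1 partial site lay in 6 of the 28 members and in 5.06% of 32817 promoters. The C/EBP site lay in 7 of 28 and 7.48%, and the interleukin-6 element in 4 of 28 and 7.26%. Members were counted by gene, with a match in any promoter of the gene, and the shares are per promoter, so the 2 are unlike units. A match is a description of letters and not a bound site. The sequences below belong to called members of the terminal complement pathway, 2 lower (Hc, C8b) and 2 higher (C6, C9). Further sequences belong to called members higher in KKAy model liver with an HNF1 partial site (C4bp, Fga). Every sequence runs 5′ to 3′ on the strand of its gene, ends at the base before the start, and has its matches in capitals.
Hc (chr2:35061413-35061612, minus strand): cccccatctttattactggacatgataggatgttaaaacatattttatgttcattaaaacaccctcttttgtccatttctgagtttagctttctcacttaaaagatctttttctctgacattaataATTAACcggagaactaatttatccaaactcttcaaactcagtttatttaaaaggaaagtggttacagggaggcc
C8b (chr4:104766117-104766316, plus strand): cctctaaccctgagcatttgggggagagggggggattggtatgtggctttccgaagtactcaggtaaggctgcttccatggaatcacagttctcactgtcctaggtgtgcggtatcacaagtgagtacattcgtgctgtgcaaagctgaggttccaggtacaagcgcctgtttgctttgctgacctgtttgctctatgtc
C6 (chr15:4727010-4727209, plus strand): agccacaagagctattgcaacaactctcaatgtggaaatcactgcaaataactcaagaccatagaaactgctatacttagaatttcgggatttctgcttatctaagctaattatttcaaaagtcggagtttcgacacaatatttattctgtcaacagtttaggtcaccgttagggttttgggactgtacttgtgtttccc
C9 (chr15:6445146-6445345, plus strand): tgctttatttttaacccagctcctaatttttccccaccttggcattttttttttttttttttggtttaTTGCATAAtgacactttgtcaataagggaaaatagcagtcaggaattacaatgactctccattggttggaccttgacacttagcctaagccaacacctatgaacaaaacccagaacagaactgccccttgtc
C4bp (chr1:130661619-130661818, minus strand): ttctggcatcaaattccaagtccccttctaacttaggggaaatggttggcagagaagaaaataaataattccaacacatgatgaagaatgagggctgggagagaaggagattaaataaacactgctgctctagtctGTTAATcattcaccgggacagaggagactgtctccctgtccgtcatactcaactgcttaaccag
Fga (chr3:83025953-83026152, plus strand): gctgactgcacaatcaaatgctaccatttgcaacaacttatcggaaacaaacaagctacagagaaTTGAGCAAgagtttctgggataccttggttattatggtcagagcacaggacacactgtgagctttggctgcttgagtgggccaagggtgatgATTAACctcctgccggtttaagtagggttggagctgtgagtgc
The capitals mark an HNF1 partial site in Hc (-74 to -69), C4bp (-64 to -59) and Fga (-43 to -38), counted from the start. A C/EBP match is marked in C9 (-132 to -125) and Fga (-135 to -128). Hc, which was lower in KKAy model liver, and C4bp and Fga, which were higher, thus share the HNF1 partial site. In C8b and C6, and in the called member Mbl1 (not shown), none of the 3 sets of letters lies in this window. F9, also called and not shown, has a C/EBP match and an interleukin-6 element.

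Of the 6 terminal pathway members, 2 were called as higher and 2 as lower. Hc encodes complement component C5, whose cleavage product C5b starts the pore. Its scaled signal was 105898, 91345, 86209, 79405 and 64652 in the XKA-H group, 95650, 86705, 95197, 109018 and 80145 in the KKAy model group, and 222005, 222232, 213685, 252389 and 254665 in the C57BL/6J group. Every KKAy array of either group lay below every C57BL/6J array, and the KKAy groups overlapped. The log2 change between KKAy model and C57BL/6J livers was -1.32 (standard error 0.13, adjusted p = 1.33e-06 from limma), and between the XKA-H and C57BL/6J groups -1.46 (adjusted p = 4.87e-07). Null alleles of Hc are known in several inbred mouse strains. The Hc genotype of these mice was not analysed here.

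C6 binds C5b in the assembly of the pore. Its scaled signal was 61076, 41716, 40251, 52265 and 40583 in the XKA-H group, 70800, 66354, 70406, 75960 and 50064 in the KKAy model group, and 23858, 18655, 26379, 36501 and 37661 in the C57BL/6J group. Both KKAy groups lay above the C57BL/6J group without overlap, and 2 XKA-H arrays reached above the lowest KKAy model array. C6 was 2.39-fold higher in the KKAy model group than in the C57BL/6J group (a log2 change of 1.26 with standard error 0.18, and adjusted p = 8.82e-05 from limma). C9, which polymerises into the wall of the pore, had a scaled signal of 382463, 447271, 343592, 431826 and 327198 in the XKA-H group, 562139, 512641, 563735, 526472 and 403034 in the KKAy model group, and 255891, 252830, 215163, 301426 and 336431 in the C57BL/6J group. The KKAy model arrays lay above all C57BL/6J arrays, and the XKA-H arrays lay between and overlapped with both. C9 rose by 0.92 (log2) in KKAy model liver relative to C57BL/6J (standard error 0.16, adjusted p = 6.92e-04 from limma).

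C8 is made of 3 chains from separate genes, of which 1 was called. C8b, the beta chain that binds the C5b-C7 complex, had a scaled signal of 52354, 54273, 70867, 67376 and 28101 in the XKA-H group, 40919, 41942, 52403, 45358 and 36929 in the KKAy model group, and 73665, 66395, 64892, 91077 and 81607 in the C57BL/6J group. All KKAy model arrays lay below all C57BL/6J arrays, and the XKA-H arrays spanned both. C8b fell by 0.79 (log2) in KKAy model liver (standard error 0.19, adjusted p = 0.00907 from limma). C8a, the alpha chain and the neighbour of C8b on chromosome 4 in RefSeq, had a log2 change of -0.21 with a 95% interval of -0.61 to 0.19 (adjusted p = 0.551). C8g, the gamma chain, had 0.46 with an interval of 0.12 to 0.79 and was not called (adjusted p = 0.0657), though it was without KKAy model replicate 5 or without C57BL/6J replicate 1 (adjusted p = 0.0219 and 0.0353). The difference between the chains was not tested. The plot of the terminal pathway shows each array.

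**Figure D2:**
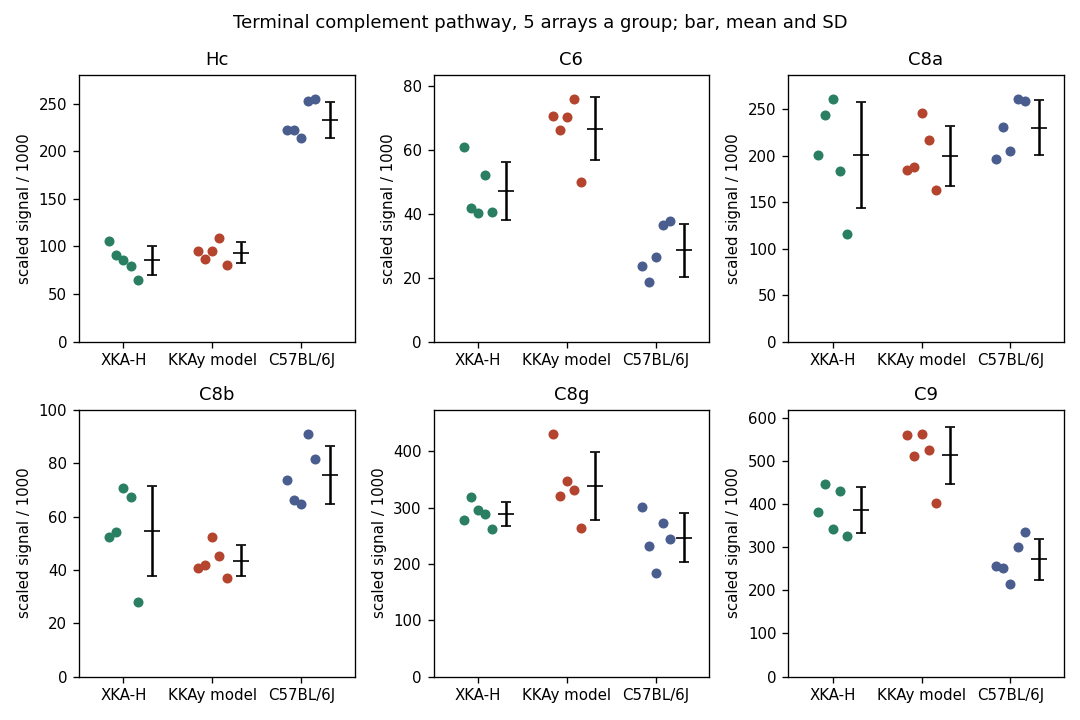
Scaled signal divided by 1000 (y axis, from 0) of the 6 measured terminal pathway genes in XKA-H, KKAy model and C57BL/6J livers, with 1 point per array (n = 5) and a bar for mean and SD. Hc and C8b lie lower and C6 and C9 higher in the KKAy model group than in the C57BL/6J group, without overlap. C8a and C8g overlap between all groups.

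Among the initiators and inhibitors of complement, Mbl1 and C4bp were called. Mbl1 encodes mannose-binding lectin A, which starts the lectin pathway on microbial sugars. Its scaled signal was 193855, 165252, 162558, 130365 and 119458 in the XKA-H group, 182976, 178351, 272729, 207171 and 150600 in the KKAy model group, and 117802, 128089, 90257, 118022 and 120969 in the C57BL/6J group. All KKAy model arrays lay above all C57BL/6J arrays, and the XKA-H arrays overlapped with both. The log2 change between KKAy model and C57BL/6J livers was 0.77 (standard error 0.17, adjusted p = 0.00403 from limma). Mbl2, the other lectin, had a log2 change of 0.29 with an interval of -0.07 to 0.64 and was not called.

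C4bp encodes C4b-binding protein, which speeds the decay of the C3 convertase of the classical and lectin pathways. Its scaled signal was 334240, 305055, 263034, 241480 and 221530 in the XKA-H group, 278492, 276162, 375677, 314844 and 211949 in the KKAy model group, and 168583, 165722, 145395, 140108 and 141025 in the C57BL/6J group. Both KKAy groups lay above the C57BL/6J group without overlap. C4bp rose by 0.92 (log2) in KKAy model liver (standard error 0.16, adjusted p = 6.03e-04 from limma) and by 0.83 in XKA-H liver (adjusted p = 0.00228), each relative to C57BL/6J. Serping1, the C1 inhibitor, had a log2 change of 0.37 and Cfi, the protease that cleaves C3b and C4b, of 0.30 between KKAy model and C57BL/6J livers, and neither was called (adjusted p = 0.218 and 0.268). Cfb, the protease zymogen of the alternative pathway, had 0.49 with an interval of 0.11 to 0.87 (adjusted p = 0.0834). It was called without KKAy model replicate 5 (adjusted p = 0.0355). C2, the neighbour of Cfb on chromosome 17 and its counterpart in the classical pathway, had 0.06 (adjusted p = 0.855).

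Masp2, the protease that cleaves C4 and C2 for the lectins, gave changes of opposite sign with its 2 probe sets. Probe set 1420524_a_at, the brighter one and the one used for the gene, had a scaled signal of 45694, 34262, 32296, 27085 and 21805 in the XKA-H group, 55811, 37839, 52213, 45233 and 31174 in the KKAy model group, and 36563, 40194, 30056, 30680 and 29430 in the C57BL/6J group. Probe set 1451759_at had 27503, 29487, 28936, 24432 and 17172 in the XKA-H group, 30259, 22380, 25417, 27147 and 12749 in the KKAy model group, and 39461, 36103, 35700, 33586 and 37478 in the C57BL/6J group. The groups overlapped in the brighter probe set, while in the other every KKAy array lay below every C57BL/6J array. In a fit over all 34945 probe sets, the log2 change between KKAy model and C57BL/6J livers was 0.39 (adjusted p = 0.206 from limma) for the brighter probe set and -0.69 (adjusted p = 0.0244) for the other, and with the mean of both it was -0.15 (adjusted p = 0.713). No direction is given for Masp2. Masp1, a related protease, had 5 probe sets. The brightest had a log2 change of -0.04, and the other 4 had 0.33 to 1.23 with none called. The value of 1.23 came from probe set 1455346_at, whose group means lay below the array median of 1000. Its mean scaled signal was 676 in KKAy model and 286 in C57BL/6J livers. With the mean of the 5, Masp1 was called as higher in KKAy model liver by 0.48 on the log2 scale (limma adjusted p = 0.0172), and its value thus depends on which probe sets are used. In that fit 9 of the 45 probe sets of members were called between KKAy model and C57BL/6J livers, 6 higher and 3 lower, where 10.1% of all probe sets were, and none between XKA-H and KKAy model livers, where 0.117% were.

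**Figure D3:**
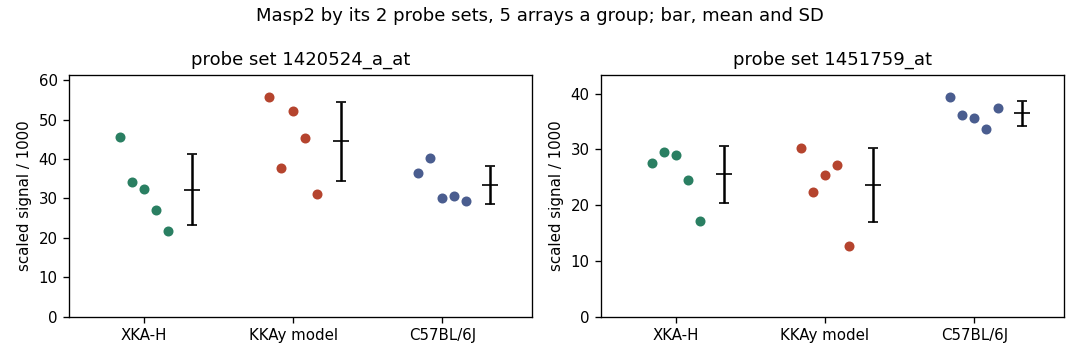
Scaled signal divided by 1000 (y axis, from 0) of the 2 Masp2 probe sets in XKA-H, KKAy model and C57BL/6J livers, with 1 point per array (n = 5) and a bar for mean and SD. The KKAy model mean lies above the C57BL/6J mean in 1420524_a_at and below it in 1451759_at, where the groups do not overlap.

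In coagulation, Fga and F9 were the called members. Fga encodes the alpha chain of fibrinogen. Its scaled signal was 622245, 580335, 512497, 412918 and 342339 in the XKA-H group, 576415, 525734, 811825, 579613 and 480290 in the KKAy model group, and 441667, 401811, 326127, 374925 and 353840 in the C57BL/6J group. All KKAy model arrays lay above all C57BL/6J arrays, KKAy model replicate 3 lay far above the rest, and the XKA-H arrays overlapped with both. The log2 change between KKAy model and C57BL/6J livers was 0.63 (standard error 0.19, adjusted p = 0.0334 from limma). Without KKAy model replicate 3 it was 0.51 and no longer called (adjusted p = 0.101). Fgb and Fgg, the beta and gamma chains from the same cluster on chromosome 3, had log2 changes of 0.37 (interval -0.03 to 0.76) and 0.31 (interval -0.05 to 0.67) and were not called. KKAy model replicate 3 was also the highest array for them.

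F9, the vitamin K-dependent factor IX, had a scaled signal of 170300, 197763, 173287, 170263 and 133408 in the XKA-H group, 202762, 177865, 208445, 220945 and 147800 in the KKAy model group, and 159405, 125462, 119960, 139523 and 143081 in the C57BL/6J group. The KKAy model and C57BL/6J groups overlapped through KKAy model replicate 5 and C57BL/6J replicate 1. Its log2 change was 0.47 (standard error 0.14, adjusted p = 0.0326 from limma), and the call was lost without any 1 of KKAy model replicates 1, 2, 3 and 4 or C57BL/6J replicates 2, 3, 4 and 5. At the deposited scale F9 had 0.28 (adjusted p = 0.0661) and Fga 0.44 (adjusted p = 0.0560), neither called, and F9 was not called without the intensity trend in limma (adjusted p = 0.0576) or with arrays centred on other hepatocyte plasma proteins (adjusted p = 0.0844). The Fga call was also lost without any 1 of KKAy model replicates 1, 3 and 4 or C57BL/6J replicates 2, 3, 4 and 5. The plot of other members shows both genes with the other fibrinogen chains.

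**Figure D4:**
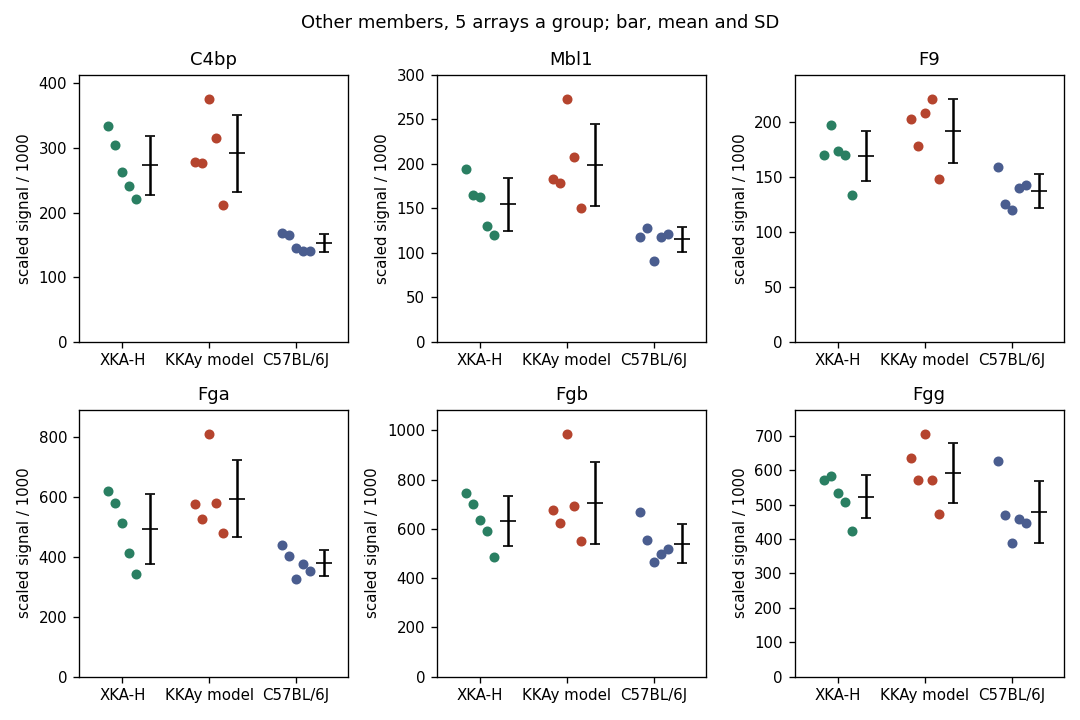
Scaled signal divided by 1000 (y axis, from 0) of C4bp, Mbl1, F9 and the 3 fibrinogen chains in XKA-H, KKAy model and C57BL/6J livers, with 1 point per array (n = 5) and a bar for mean and SD. C4bp, Mbl1 and Fga lie higher in the KKAy model group than in the C57BL/6J group without overlap, and KKAy model replicate 3 is the highest point for Fga (811825), Fgb (985819) and Fgg (705410).

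The other 17 coagulation members were not called between KKAy model and C57BL/6J livers. Their log2 changes ran from -0.28 to 0.37, and all 17 intervals lay within a log2 change of 1 in either direction, 13 of them within 0.5. F2 (prothrombin), F7 and F10, the other vitamin K-dependent factors, had 0.15, -0.07 and -0.02. The contact system, F11, F12, Kng1 (kininogen) and Klkb1 (prekallikrein), lay between -0.13 and 0.10. The anticoagulants Serpinc1 (antithrombin), Serpind1 (heparin cofactor II), Proc (protein C) and Pros1 (protein S) lay between -0.01 and 0.14. F5, the cofactor of factor Xa, had 0.20 in its brighter probe set and -0.18 in the other, neither called, so no direction is given for it. F13b, the carrier subunit of factor XIII, had -0.05, Plg (plasminogen) 0.14 and Serpinf2, the plasmin inhibitor alpha-2-antiplasmin, -0.28. At the deposited scale, and again after quantile normalization, 8 uncalled members (F2, F12, Plg, Serpinc1, Proc, Pros1, Kng1 and C2) turned to a negative sign, so no direction is given for them. The 8 called members kept their sign in all settings.

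Between XKA-H and KKAy model livers no member was called by limma, where 0.176% of all genes were, 0.066% higher and 0.11% lower. At an unadjusted p under 0.05 there were 5 of the 34 members, against 8.61% of all genes. These were C6 with a log2 change of -0.51 (95% interval -0.88 to -0.13), Masp2 with -0.48 in its brighter probe set (interval -0.86 to -0.10, against 0.14 in the other), C9 with -0.41 (interval -0.75 to -0.07), Mbl1 with -0.36 (interval -0.70 to -0.01) and F11 with -0.28 (interval -0.55 to -0.02). Their adjusted p ran from 0.374 to 0.574. The change was negative in 24 of the 34 members and positive in 10, with a median of -0.08 against -0.06 over all genes, of which 58.4% were negative. After quantile normalization 15 members were negative and 19 positive, with a median of 0.01, so the members as a body have no settled direction here. No member had ranges that did not overlap between these groups, where 1.42% of all genes had. All 34 intervals lay within a log2 change of 1 in either direction and 22 within 0.5, so a change of 2-fold in either direction lies outside the interval of each member. Dunnett comparisons, which the study's methods name, called C9 unadjusted, where 5.19% of all genes were called. They called no member after Benjamini-Hochberg adjustment.

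The reverse rate (RR) of the study's methods is the share of the difference between the KKAy model and C57BL/6J group means that is undone in the XKA-H group, with 1 for a full return and a value below 0 for a move away. It was 0.53 for C9, 0.53 for Mbl1, 0.51 for C6, 0.47 for Fga, 0.42 for F9 and 0.35 for C8b. It was 0.13 for C4bp and -0.06 for Hc. Among the 26 uncalled members it was above 0 in 20, and in some of them the difference in the denominator is close to 0. The KKAy model mean enters both parts of the ratio, so members chosen for a large difference from C57BL/6J tend to a value above 0. None of these 8 members was called between XKA-H and KKAy model livers, so the RR is a description of group means and nothing is read from its sign.

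Between the XKA-H and C57BL/6J groups 3 members were called, C4bp and C6 higher and Hc lower, where 7.48% of all genes were called, 5.53% higher and 1.95% lower. C6 had a log2 change of 0.75 (standard error 0.18 and adjusted p = 0.0129 from limma), and this call was lost at the deposited scale (adjusted p = 0.0513) and after quantile normalization (adjusted p = 0.0713). C9 had 0.51 and C8b -0.53 and neither was called (adjusted p = 0.0639 and 0.115). C9 was called as higher in 7 alternatives, among them quantile normalization (log2 change 0.41, adjusted p = 0.0202) and the fit without dim genes (adjusted p = 0.0191). C8b and F11 were called as lower at the deposited scale and also after quantile normalization. No coagulation member was called by limma. At an unadjusted p under 0.05 there were 2 of the 19, against 19.4% of all genes. The ranges of C4bp, C6 and Hc did not overlap between these groups, where 7.03% of all genes did not.

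Members moved together from array to array. On XKA-H replicate 5, KKAy model replicate 5 and C57BL/6J replicate 3, all 34 members lay below the mean of their group, by a median of 0.36, 0.36 and 0.17 on the log2 scale. These arrays had the highest deposited medians of their groups, 161.3, 162.2 and 182.1. At the deposited scale 30, 32 and 16 of the 34 members lay below the group mean on them, and after quantile normalization 25, 21 and 13. The 32 measured genes of other hepatocyte plasma proteins lay 0.31, 0.36 and 0.25 below and all genes 0.15, 0.19 and 0.11 below. Without these 3 arrays 9 members were called between KKAy model and C57BL/6J livers, the 8 above and C8g, where 12.1% of all genes were. None was called between XKA-H and KKAy model livers, where 0.0879% of all genes were.

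**Figure D5:**
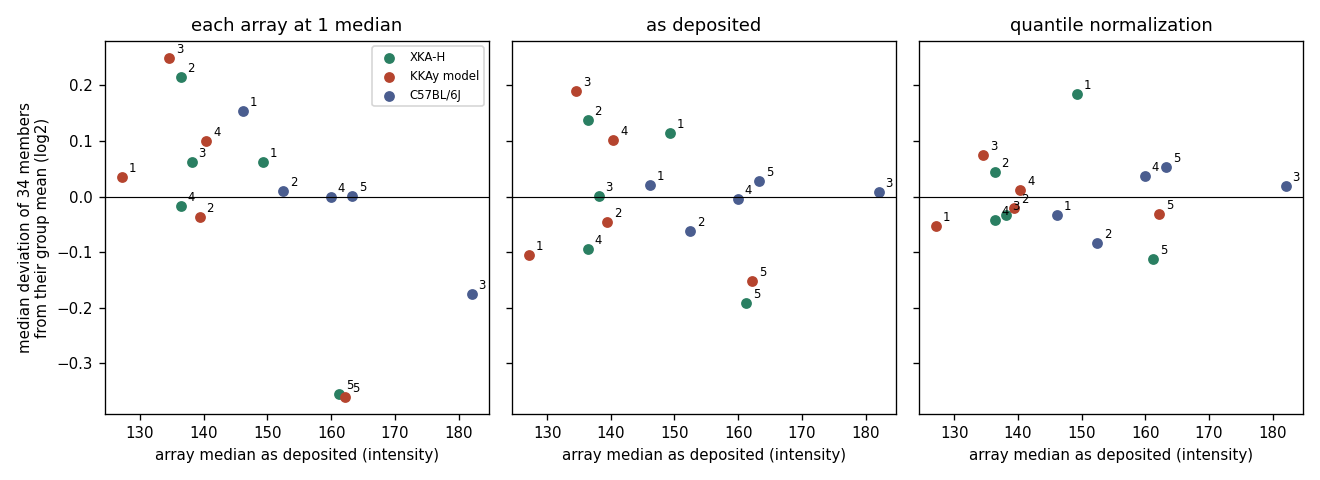
Median deviation of the 34 members from their group mean (y axis, log2) against the deposited median of the array (x axis, intensity) at each of 3 scalings, with 1 numbered point per array. At 1 median per array, XKA-H 5, KKAy model 5 and C57BL/6J 3 lie lowest (-0.36, -0.36 and -0.17), and the spread is smaller after quantile normalization.

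Acute phase markers were set beside the members, and a relation between the 2 across arrays was not tested. Of 15 measured acute phase markers, 10 (66.7%) were called as higher in the KKAy model group than in the C57BL/6J group and none as lower, where 13% of all genes were called. The 15 had a median log2 change of 2.06 and a summed signal of 3216916 to 8504932 in KKAy model livers against 1551102 to 2407647 in C57BL/6J livers. On KKAy model replicate 3 these markers lay a median of 0.94 on the log2 scale above the group mean, and 29 of the 34 members lay above theirs, by a median of 0.25. The 32 other hepatocyte plasma proteins lay 0.28 and all genes 0.08 above on this array. On XKA-H replicate 1 the markers lay 1.08 above and the members 0.06 above, with the other plasma proteins at 0.02 and all genes at -0.06. Without these 2 arrays, a choice made after the values were seen, C4bp, C6, C8b, C9, Hc and Mbl1 were called between KKAy model and C57BL/6J livers, and Fga and F9 were not (log2 changes of 0.51 and 0.44, against 0.63 and 0.47 on all arrays). Without these 2 arrays 10.6% of all genes were called between KKAy model and C57BL/6J livers. The Fga and F9 calls were also lost without most other single arrays of the 2 groups. XKA-H replicate 1 enters the comparison of KKAy model with C57BL/6J livers only through the shared estimate of spread. The log2 changes of 0.51 and 0.44 therefore rest on leaving out KKAy model replicate 3, the highest array for Fga. The part of the acute phase in the calls of the members was not tested. Kupffer cell and macrophage markers, 11 measured, summed to 142235 to 272156 in XKA-H, 183137 to 455642 in KKAy model and 156719 to 281557 in C57BL/6J livers, with 1 higher and 1 lower between KKAy model and C57BL/6J livers. The summed level of KKAy model livers lay above that of C57BL/6J livers without overlap for 3 lists, erythroid markers (3 measured, 25444 to 42215 against 7770 to 16432), neutrophil markers (7 measured, 13420 to 32787 against 7310 to 11120) and sinusoidal endothelium markers (7 measured, 66602 to 84955 against 45897 to 62751). By gene, 1 erythroid, 1 neutrophil and 2 sinusoidal endothelium markers were called as higher and none as lower, where 13% of all genes were called. The log2 change was negative in 1 of 3 erythroid, 0 of 7 neutrophil and 3 of 7 sinusoidal endothelium markers. In XKA-H livers these lists summed to 22832 to 31989, 6653 to 26351 and 49947 to 87271. Their part in the members' calls was not tested.

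Coagulation and complement genes outside the set, in part made by other liver cells, were taken from lists of the same pathways. Of 29 other coagulation and fibrinolysis genes 7 (24.1%) were called as higher and none as lower in KKAy model than in C57BL/6J livers. Of all genes 13% were called, and 81.3% of those called were higher. At an unadjusted p under 0.05 there were 14 of the 29, against 25.2% of all genes. The median log2 change of the 29 was 0.35, against 0.15 over all genes. Tfpi2, an inhibitor of serine proteases, rose by 0.75 (adjusted p = 0.00135 from limma), Mcfd2, which helps to carry factors V and VIII out of the endoplasmic reticulum, by 0.76 (adjusted p = 0.00153), and Vwf, the von Willebrand factor of endothelium, by 1.28 (adjusted p = 0.00176). Anxa2, a cell surface receptor for plasminogen activation, was the only gene of these lists called between XKA-H and KKAy model livers (log2 change -1.37, adjusted p = 0.0183), and the mean of its probe sets gave 0.04. Of 27 other complement genes 5 (18.5%) were called as higher and none as lower in KKAy model liver, with a median of 0.29. At an unadjusted p under 0.05 there were 6 of the 27. The shares and the median over all genes are those given above. Cd59a, the membrane inhibitor of the terminal pore, rose by 1.26 (adjusted p = 4.29e-06), C1s1, a protease of C1, by 0.65 (adjusted p = 0.00396) and Colec10, a collectin, by 0.66 (adjusted p = 0.00252). These 6 genes were called at the deposited scale, under quantile normalization and when probe sets were averaged. Of the other 6 called genes of these lists, Serpina5 was also called in all of these settings, with a log2 change of 2.36 between KKAy model and C57BL/6J livers. Its limma adjusted p at the deposited scale was 0.00682. Anxa2 had 2.61 in its brightest probe set and was not called when probe sets were averaged (1.22, limma adjusted p = 0.0506). Cpn1, a carboxypeptidase that inactivates complement anaphylatoxins, had 0.72 in its brightest probe set and -0.20 when probe sets were averaged. C1qc, S100a10 and Tgm2 were not called at the deposited scale (adjusted p = 0.151, 0.0880 and 0.154).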

How the data were processed

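The authors deposited 1 linear intensity per probe set and array, 45101 probe sets on 15 arrays, and per the labels processed them in ArrayTrack 3.5.0. The methods name scaling to a median of 1000, while the deposited medians differ, so each array was scaled to 1000 here. How probes were summarised is not stated in the sources used. Of the probe sets, 34958 carried 1 gene symbol, 932 several and 9211 none, and 34741 were matched to RefSeq by Entrez identifier. After 13 control probe sets were left out, each gene was represented by its brightest probe set. Log2 scaled signals of the 3 groups were compared in R 4.3.3 with limma 3.58.1 (lmFit, eBayes with an intensity trend, two-sided), with Benjamini-Hochberg adjustment over 18193 genes. Standard errors of log2 changes had a median of 0.28 over all genes and 0.16 over members. The number of arrays limits the precision. In simulated data with 18193 genes for the KKAy model against C57BL/6J comparison, 100 genes were changed by a log2 of 1 and 100 by 2. They were called in 40% and 70% of cases, and 6.78% of calls were false. In the real data 2366 genes were called and members had smaller standard errors than most genes. The simulated rates are therefore not those of the members. Dunnett comparisons used mvtnorm 1.3.3, with data.table (version 1.17.8), and promoters and figures used Python 3.11.15, pandas 2.3.3 and matplotlib 3.10.9. Alternatives changed the scaling, probe sets, dim genes, trend, weights, test, replicate block and arrays. The members and lists were chosen with earlier results of these data known. Any member may be named, and of other lists up to 8 called genes per comparison with the largest change.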

Additional observations from a re-analysis of the deposited data

Results flagged for a closer look

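In 3 of 102 sets of 5 arrays tested, 1 array lay far from the other 4, a gap that chance gives in about 1 in 20 sets. Serpinf2, alpha-2-antiplasmin, had its highest C57BL/6J signal on replicate 1 (190426, next highest 142597). Masp1 had its lowest KKAy model signal on replicate 5 (49701, next lowest 67856), and Mbl1 its lowest C57BL/6J signal on replicate 3 (90257, next lowest 117802). The last 2 are arrays on which all 34 members lay below their group mean.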

How the results depend on the processing

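Hc, C6, C9, C4bp and Mbl1 were called between KKAy model and C57BL/6J livers in all 29 alternatives, C8b in 28, Fga in 19 and F9 in 16. The count of 8 members became 6 as deposited, 9 after quantile normalization and 5 by Dunnett comparisons with Benjamini-Hochberg adjustment (C8b adjusted p = 0.0707). Of all genes 13% were called, and in these settings 11.9%, 14.9% and 7.58%. With 1 array left out the count was 6 to 10, where 9.21% to 15.3% of all genes were called. The count of probe sets became 6 to 11. Masp2 turned to -0.15 with the mean of its probe sets. The cause was not tested. Between XKA-H and KKAy model livers 1 member (C9) was called by unadjusted Dunnett comparisons, where 5.19% of all genes were, and 0 otherwise. Between the XKA-H and C57BL/6J groups 3 members became 5 after quantile normalization and 3 to 4 with 1 array left out. The count became 6 (1 higher, 5 lower) with arrays centred on other hepatocyte plasma proteins, a choice made after the values were seen. That centring called 5 higher and 3 lower members between KKAy model and C57BL/6J livers, where 9.84% of all genes were called. Between the XKA-H and C57BL/6J groups 7.48% of all genes were called, and 10%, 5.29% to 7.99% and 7.46% in these settings. As deposited the share was 8.15%. Of all genes called between KKAy model and C57BL/6J livers, 81.3% were higher, against 52.5% as deposited, 59.2% after quantile normalization and 49.9% with that centring, and between the XKA-H and C57BL/6J groups 73.9%, against 47.4%, 55.9% and 33%. Members called were 4 higher and 2 lower as deposited and 6 higher and 3 lower after quantile normalization in the KKAy model against C57BL/6J comparison, and 1 higher and 3 lower and 2 higher and 3 lower in the XKA-H against C57BL/6J comparison. Between XKA-H and KKAy model livers 32 genes were called in all, 63 as deposited, 113 after quantile normalization, 6 with the mean of probe sets and 944 by unadjusted Dunnett comparisons.

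With the replicate number as a block, 8, 0 and 3 members were called in the comparisons of KKAy model with C57BL/6J, XKA-H with KKAy model and XKA-H with C57BL/6J. Of all genes 11.6%, 0.121% and 6.57% were called there. With this block 8 and 0 probe sets of members were called in the KKAy model with C57BL/6J and XKA-H with KKAy model comparisons. Arrays of the same number were correlated between -0.0447 and 0.0920 over genes, and no pairing was used.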

Other observations

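Of 10 genes of the interleukin-6 signal and its feedback, 2 were called as higher in KKAy model than in C57BL/6J livers, Il6st and Il1r1, and 3 as higher in XKA-H than in C57BL/6J livers, these and Il6ra. That is 20% and 30% of the list, where 13% and 7.48% of all genes were called. Il1r1, an interleukin-1 receptor, was not called with the mean of its probe sets (adjusted p = 0.224 in the KKAy model comparison). Il6st, the signal-transducing receptor chain gp130, had a mean scaled signal of 37680 in XKA-H, 49720 in KKAy model and 8464 in C57BL/6J livers. It rose by 2.56 (log2) in KKAy model liver relative to C57BL/6J (standard error 0.23, adjusted p = 1.96e-07 from limma), and by 1.07 (adjusted p = 6.2e-04) with the mean of its probe sets. Il6ra, the ligand-binding chain, was called as higher in the XKA-H group than in the C57BL/6J group (log2 change 0.90) but not between KKAy model and C57BL/6J livers (0.34, adjusted p = 0.395). Among 21 liver transcription factors, Nr3c1, the glucocorticoid receptor, was the only one called between KKAy model and C57BL/6J livers (a log2 change of 0.40 with adjusted p = 0.0288 from limma), 4.76% of the list where 13% of all genes were called. Between XKA-H and C57BL/6J livers 6 of the 21 were called, Nr3c1, Tef, Cebpd, Ppara and Dbp higher and Foxa1 lower, 28.6% of the list where 7.48% of all genes were. The difference between these comparisons was not tested.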
